A study of Mus musculus with 12 samples.

Results

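The metabotropic glutamate receptor genes Grm2, Grm3, Grm4, Grm5, Grm7 and Grm8 were followed by RNA-seq through cultured mouse cortical neurons in which topoisomerase I (TOP1) was deleted, trapped on DNA by topotecan, or both. These 6 genes were taken from the raw count table by their symbols, out of 23893 genes, and all 6 had a mean of at least 1 CPM (the count scaled to the library's total) and entered every comparison. Grm6, of the same family, had 0 counts in all 12 libraries. The study asked how loss of TOP1 and the drug-trapped enzyme each alter expression in neurons. Its 12 RNA-seq libraries formed 4 groups of 3. According to the study's methods all groups were Top1 fl/fl cultures, whereas the labels give C57BL6/J wild-type females for every culture. The embryos were between day 13.5 and day 15.5 of gestation. WT cultures received a lentivirus expressing the red protein tdTomato, and Top1 cKO cultures received one expressing tdTomato-P2A-CRE, at 3 days in vitro (DIV). WT-Veh and Top1 cKO-Veh were given vehicle (0.003% DMSO) from DIV 15, WT-Topot and Top1 cKO-Topot were given 300 nM topotecan in the same vehicle, and all were harvested 3 days later. Both viruses were driven by the CaMKIIα promoter, which restricts expression to neurons, and per the labels reached about 85 to 90% of cells, so CRE was not aimed at glia and did not reach every neuron.

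Metabotropic glutamate receptors are G protein-coupled receptors that adjust excitability and transmitter release on a slower time scale than the ion channel receptors for glutamate. Group I, to which Grm5 belongs, couples to Gq and phospholipase C and sits mainly on the postsynaptic side, where Homer proteins tie it to calcium stores. Group II (Grm2, Grm3) and group III (Grm4, Grm6, Grm7, Grm8) couple to Gi/o, lower cyclic AMP and, at presynaptic terminals, restrain glutamate release. Grm3 and Grm5 are also made by astrocytes, and Grm6 is the receptor of retinal ON bipolar cells.

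Library totals ran from 1730164 to 4583777 counts, at which 3 counts equal 0.687 to 1.73 CPM. The targeted gene followed its labels, with Top1 at 117 to 163 CPM in the 6 tdTomato libraries and at 27.1 to 44.0 CPM in the 6 CRE libraries. The 8 markers on the glutamatergic neuron list were all expressed and summed to 3848 to 5628 CPM per library. This sum includes Snap25 (mean 1547 CPM) and Tubb3 (mean 455 CPM), genes of neurons in general, so it does not measure glutamatergic neurons alone. Markers of other cells were also present, with 8 astrocyte markers summing to 657 to 3791 CPM and 8 interneuron markers to 527 to 1731 CPM, while none of 6 microglial markers averaged 1 CPM. Libraries with the same replicate number deviated together, so each comparison was also fitted with that number as a block, and the blocked value is given where it changes a call. With the block, a fit of 6 libraries has little left to estimate each gene's own spread. Its p-values then rest largely on the spread shared over genes, and no blocked fit with a filter on low counts was run.

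Of the 6 genes, 3 are among the very long genes of the genome. On mm9 and GENCODE vM1, Grm7 spans 921.7 kb (chr6:110595575-111517224, plus strand), Grm8 spans 860.1 kb (chr6:27225121-28085178, minus strand) and Grm5 spans 532.5 kb (chr7:94750952-95283417, plus strand). Grm3 covers 240.1 kb (chr5:9485236-9725352, minus strand), Grm4 covers 91.0 kb (chr17:27559332-27650286, minus strand) and Grm2 only 11.6 kb (chr9:106546868-106558440, minus strand). Exons make up 0.639% of Grm7 and 28.7% of Grm2, so nearly all of the difference in length is intron. The exons of Grm8 contain the microRNA gene Mir592 over 96 bases on the same strand, and those of Grm7 share 130 bases with a transcript on the opposite strand. Whether counting used strand is not given in the sources used here.

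The start regions of Grm7 and Grm8 are printed because these genes had the lowest fold changes with topotecan, and that of Grm2 because it was lower after deletion and topotecan although it is the shortest of the 6. RefSeq promoter windows (GRCm38.p6, 300 bases across a start, read along the gene) matched 4 of the 6 genes, Grm2, Grm3, Grm7 and Grm8. Capitals mark the GC box GGGCGG, which was searched on both strands (CCGCCC on the other strand) and is a common element of promoters without a TATA box.
Grm2, chr9:106656060-106656359, minus strand: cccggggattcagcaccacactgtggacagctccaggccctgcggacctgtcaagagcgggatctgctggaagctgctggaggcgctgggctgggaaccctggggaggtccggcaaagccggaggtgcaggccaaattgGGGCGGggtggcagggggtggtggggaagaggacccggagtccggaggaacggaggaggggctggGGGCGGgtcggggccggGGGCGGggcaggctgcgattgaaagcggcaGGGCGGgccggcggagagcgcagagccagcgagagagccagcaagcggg
Grm7, chr6:110645262-110645561, plus strand: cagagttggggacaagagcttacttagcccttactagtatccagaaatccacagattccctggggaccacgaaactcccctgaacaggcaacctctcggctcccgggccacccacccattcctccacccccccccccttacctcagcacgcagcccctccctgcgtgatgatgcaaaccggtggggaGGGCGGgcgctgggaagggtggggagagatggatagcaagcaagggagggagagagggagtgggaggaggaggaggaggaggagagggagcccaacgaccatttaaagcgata
Grm8, chr6:28135097-28135396, minus strand: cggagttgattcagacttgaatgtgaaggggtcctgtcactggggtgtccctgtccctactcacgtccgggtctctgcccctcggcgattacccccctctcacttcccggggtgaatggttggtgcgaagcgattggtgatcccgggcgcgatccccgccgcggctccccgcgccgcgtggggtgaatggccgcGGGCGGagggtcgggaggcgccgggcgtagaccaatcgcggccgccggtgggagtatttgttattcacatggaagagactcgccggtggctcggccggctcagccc
Grm2 has 4 GC boxes and a GC content of 72.0% in this window, Grm7 has 1 and 61.0%, and Grm8 has 1 and 67.0%. Of all 32851 windows, 35.7% hold a GC box, and their median GC content is 52.7%. The Grm3 window holds 2 GC boxes at 63.7% GC and the further Grm7 window 1 at 66.7% GC, but the 2 further windows of Grm8 hold 0, at 43.3% and 54.0% GC. Neither the cyclic AMP element TGACGTCA (1.79% of all windows) nor TATAAA (13.6%) occurs in any of the windows of these 4 genes.

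In vehicle-treated WT neurons Grm5 was the most abundant of the receptor transcripts. Levels of different genes were compared as CPM per kilobase of exon, on which scale WT-Veh gave 56.2 ± 7.76 for Grm5, 20.5 ± 7.66 for Grm7, 18.0 ± 5.26 for Grm2, 5.51 ± 2.84 for Grm3, 3.70 ± 0.362 for Grm4 and 3.22 ± 0.717 for Grm8 (mean ± SD, n = 3). Every Grm5 library lay above every library of the other genes. The ranges of Grm7 and Grm2 overlapped, as did those of Grm3 and Grm4 and those of Grm4 and Grm8, so these neighbours in the order were not separated.

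**Figure D1:**
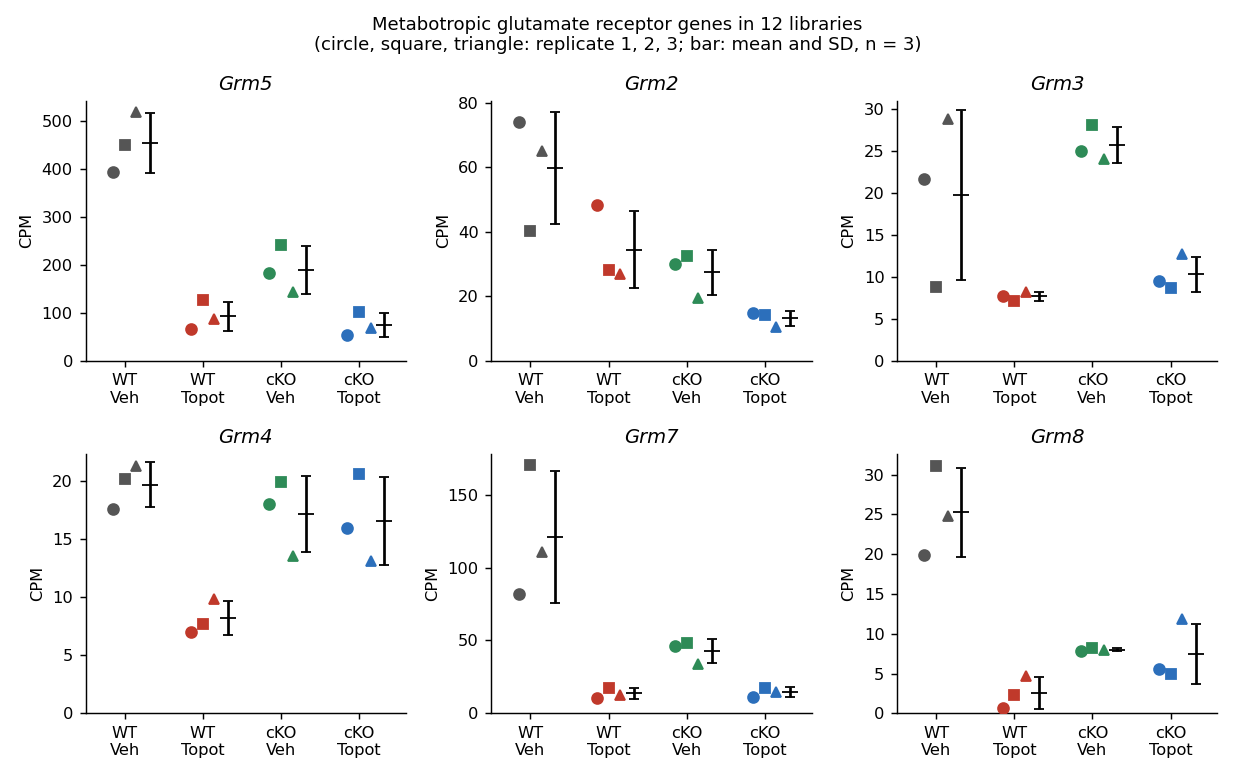
Expression of the 6 receptor genes in CPM (vertical axes, each starting at 0) in the 4 groups, with circles, squares and triangles for replicates 1, 2 and 3 and bars for the mean and SD of 3 libraries. Grm5, Grm7 and Grm8 lie lower in every other group than in WT-Veh, without overlap. Grm4 is low in WT-Topot alone, and Grm3 is low in both topotecan groups and in WT-Veh replicate 2.

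Topotecan lowered Grm5, Grm7 and Grm8 in WT neurons to 20.3%, 11.3% and 10.1% of their mean WT-Veh levels. At an adjusted p below 0.01 (edgeR's quasi-likelihood test, adjusted over all genes) 3 of the 6 genes were called lower in WT-Topot than in WT-Veh, against 2.04% of all genes. With the replicate block all 6 were called lower, against 5% of all genes. In 5 of the 6 genes every WT-Topot library lay below every WT-Veh library, which held for 13.2% of expressed genes, and the median log2 fold change of the 6 was −1.82, against 0.03 over 13720 expressed genes.

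Deletion of Top1 without drug gave a smaller and less complete pattern. Grm5 alone passed in Top1 cKO-Veh against WT-Veh, 1 of 6 genes against 0.126% of all genes, and with the block 4 of 6 passed (Grm2, Grm5, Grm7 and Grm8), against 2.95%. The same 4 genes had no overlap between the groups, against 10.3% of expressed genes. The median log2 fold change of the 6 genes was −1.19.

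With deletion and topotecan together, 4 of 6 genes (Grm2, Grm5, Grm7 and Grm8) were called lower in Top1 cKO-Topot than in WT-Veh, against 1.21% of all genes, and the same 4 did not overlap, against 14.5% of expressed genes. Of expressed genes over 500 kb, 43.0% were called lower in that comparison. Setting Top1 cKO-Topot against Top1 cKO-Veh asks what topotecan still does once most TOP1 is gone. None of the 6 passed there, where 0.00837% of all genes did, although 4 had an unadjusted p below 0.05, DESeq2's Wald test called 2 and edgeR's exact test called 3. The shares of all genes by these other measures were not taken, so their counts have no background. With the block, Grm2, Grm3, Grm5 and Grm7 passed, 4 of 6 against 1.74% of all genes, and these 4 did not overlap between the groups, against 6.54% of expressed genes. Of expressed genes over 500 kb, as Grm5 and Grm7 are, 40.2% were called lower in this blocked fit. The share was 12.3% for genes of 200 to 400 kb (as Grm3) and 1.44% for those up to 25 kb (as Grm2). The comparisons with WT-Veh share its 3 libraries, and those with Top1 cKO-Veh share theirs.

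**Figure D2:**
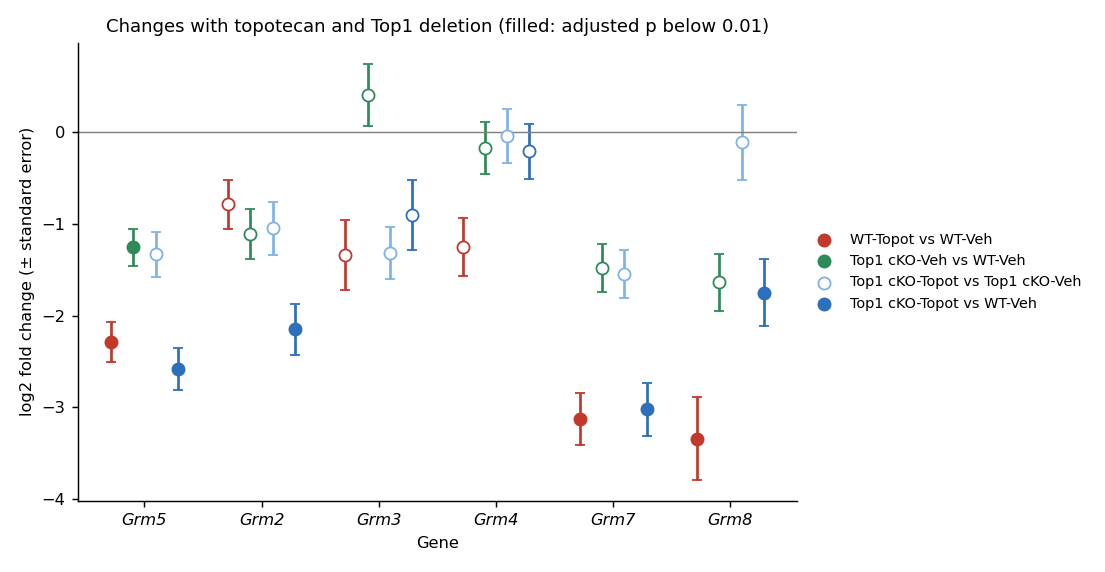
Log2 fold change with its standard error for the 6 receptor genes (horizontal axis) in 4 comparisons, with filled points for an adjusted p below 0.01 in the fit without the block. Grm7 and Grm8 reach −3.12 and −3.34 with topotecan in WT neurons, and Grm4 lies near 0 in the other 3 comparisons.

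Grm5, the main group I receptor of the forebrain, had 393, 451 and 518 CPM in the WT-Veh libraries (replicates 1, 2 and 3). The Top1 cKO-Veh libraries had 182, 242 and 144 CPM, against 65.3, 126 and 86.1 CPM in WT-Topot and 53.4, 102 and 67.3 CPM in Top1 cKO-Topot. Every library of the other groups lay below every WT-Veh library, and all Top1 cKO-Veh libraries lay above all libraries of both topotecan groups. The fall was 4.89-fold with topotecan (log2 fold change −2.29, SE 0.22, adjusted p = 1.53e-06) and 5.99-fold with deletion and topotecan (−2.58, SE 0.23, adjusted p = 4.89e-07). Deletion alone lowered Grm5 by 2.39-fold (−1.26, SE 0.20, adjusted p = 0.00877). That call was lost without WT-Veh replicate 2 (adjusted p = 0.0359), with a filter on low counts (filterByExpr, 0.0335) and in a fit of all 12 libraries (0.0129), while the log2 fold change stayed between −1.48 and −1.10 over all alternatives. In Top1 cKO neurons topotecan gave −1.34 (SE 0.24, adjusted p = 0.0465), which passed with the block (adjusted p = 6.88e-23) and also without Top1 cKO-Veh replicate 1 or 3 (adjusted p = 0.000165 and 2.48e-06).

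Among group III genes, Grm7, a presynaptic receptor with low affinity for glutamate, had 81.6, 170 and 111 CPM in WT-Veh. It dropped to 10.4, 17.7 and 12.8 CPM in WT-Topot and to 11.2, 17.6 and 14.9 CPM in Top1 cKO-Topot, while Top1 cKO-Veh held 46.5, 48.5 and 33.6 CPM. The 3 levels did not overlap, and the difference between the topotecan groups did not pass the test (log2 fold change 0.08, SE 0.32). For Grm7 the fall was 8.72-fold with topotecan (−3.12, SE 0.29, adjusted p = 8.79e-07) and 8.12-fold with deletion and topotecan (−3.02, SE 0.29, adjusted p = 1.41e-06). Deletion alone gave −1.48 (SE 0.26, adjusted p = 0.0156), called with the block (adjusted p = 5.28e-18) and without WT-Veh replicate 1, WT-Veh replicate 3 or Top1 cKO-Veh replicate 1 (adjusted p = 0.00133, 0.00379 and 0.00199), and in the fit of all 12 libraries (adjusted p = 0.00619). Topotecan in Top1 cKO neurons gave −1.55 (SE 0.26, adjusted p = 0.0382), called with the block (adjusted p = 1.29e-11) and without Top1 cKO-Veh replicate 1 or 3 (adjusted p = 0.00449 and 8.55e-05). WT-Topot lay below Top1 cKO-Veh by 3.14-fold (−1.65, SE 0.27, adjusted p = 0.00131).

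Grm8, a presynaptic group III receptor with high affinity for glutamate, was scarce, with 68, 71 and 43 counts in WT-Veh (19.9, 31.1 and 24.8 CPM). WT-Topot held 2, 8 and 11 counts (0.670, 2.29 and 4.71 CPM), so the first of these libraries was below the 3-count mark. Top1 cKO-Veh held 7.82, 8.24 and 8.02 CPM, and Top1 cKO-Topot 5.58, 4.98 and 11.8 CPM. The lowest level was thus with topotecan in WT neurons, and every Top1 cKO library, treated or not, lay above every WT-Topot library. The log2 fold change was −3.34 with topotecan (SE 0.45, adjusted p = 6.36e-05), the 47th lowest of 13720 expressed genes, with Grm7 at place 62. It was −4.01 without WT-Topot replicate 3, the Grm8 library with the most counts of its group. For Grm8 it was −1.64 with deletion (SE 0.31, adjusted p = 0.0195, with the block 2.37e-08) and −1.75 with deletion and topotecan (SE 0.36, adjusted p = 0.00681). The last call was lost without WT-Veh replicate 2 (adjusted p = 0.0384), Top1 cKO-Topot replicate 1 (0.0126) or Top1 cKO-Topot replicate 2 (0.0599), and with filterByExpr (0.0215) or all 12 libraries in the fit (0.0143). Within Top1 cKO neurons topotecan gave −0.12 (SE 0.41, adjusted p = 1), a wide interval at these counts.

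Grm4, a group III receptor best known from cerebellar granule cells, had 17.6, 20.2 and 21.3 CPM in WT-Veh. WT-Topot had 7.04, 7.73 and 9.85 CPM, Top1 cKO-Veh 18.0, 19.9 and 13.5 CPM, and Top1 cKO-Topot 15.9, 20.6 and 13.1 CPM. All 3 WT-Topot libraries lay below all 9 others. With topotecan in WT neurons the log2 fold change was −1.25 (SE 0.31, adjusted p = 0.0205, with the block 0.000166), and in Top1 cKO neurons it was −0.05 (SE 0.29, adjusted p = 1). Deletion alone gave −0.18 (SE 0.28, adjusted p = 1). Top1 cKO-Topot exceeded WT-Topot by 1.02 (SE 0.33, adjusted p = 0.0750), called only with the block (adjusted p = 0.00532).

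Grm2, a presynaptic group II autoreceptor, is the shortest gene of the 6 and followed another order. WT-Veh held 74.0, 40.3 and 65.1 CPM, WT-Topot 48.3, 28.1 and 27.0 CPM, Top1 cKO-Veh 30.1, 32.5 and 19.5 CPM, and Top1 cKO-Topot 14.7, 14.3 and 10.5 CPM. The single-treatment groups overlapped with each other, and all Top1 cKO-Topot libraries lay below all libraries of the other groups. Deletion and topotecan together lowered Grm2 by 4.44-fold (log2 fold change −2.15, SE 0.28, adjusted p = 5.60e-05). Each treatment alone missed the threshold without the block, at −0.79 for topotecan (SE 0.27, adjusted p = 0.119, with the block 0.000823) and −1.11 for deletion (SE 0.27, adjusted p = 0.0801, with the block 5.37e-07). Topotecan in Top1 cKO neurons gave −1.05 (SE 0.29, adjusted p = 0.374, with the block 0.000189). Without the block Grm2 was the only one of the 6 called between the topotecan groups, lower in Top1 cKO-Topot than in WT-Topot by 2.61-fold (−1.38, SE 0.29, adjusted p = 0.00403), 1 of 6 genes against 1.03% of all genes. That call was lost without WT-Topot replicate 1 (adjusted p = 0.0367) or Top1 cKO-Topot replicate 2 (adjusted p = 0.0149), and with filterByExpr (adjusted p = 0.0131).

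Grm3, the group II receptor of neurons and astrocytes, was lower in both topotecan groups with the block and was not called with deletion. It had 21.7, 8.77 and 28.8 CPM in WT-Veh and 25.03, 28.2 and 24.0 CPM in Top1 cKO-Veh, against 7.71, 7.16 and 8.14 CPM in WT-Topot and 9.56, 8.63 and 12.7 CPM in Top1 cKO-Topot. WT-Veh replicate 2 stood apart from its group and close to the topotecan libraries, and all WT-Topot libraries still lay below all vehicle libraries. With topotecan the log2 fold change was −1.34 in WT neurons (SE 0.38, adjusted p = 0.0478) and −1.32 in Top1 cKO neurons (SE 0.28, adjusted p = 0.111), both called with the block (adjusted p = 0.000466 and 1.86e-06). Without this library the change of Grm3 (WT-Veh replicate 2 left out) in WT neurons was −1.70 (adjusted p = 0.00234). Deletion alone gave 0.40 (SE 0.34, adjusted p = 0.976). WT-Topot was lower than Top1 cKO-Veh by 3.37-fold (−1.75, SE 0.28, adjusted p = 0.00112).

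Astrocyte markers, taken as a sum, were on average also lower in the topotecan groups, with overlap between libraries in each genotype. Their sum was 3393, 1557 and 1300 CPM in WT-Veh replicates 1, 2 and 3 and 1396, 702 and 671 CPM in WT-Topot. In Top1 cKO-Veh it was 3791, 1520 and 1338 CPM, and in Top1 cKO-Topot 1799, 1086 and 657 CPM. Of the 8 markers, Gfap (log2 fold change −2.54, adjusted p = 0.000174) and Slc1a3 (−1.52, adjusted p = 0.00106) were called lower in WT-Topot, against 2.04% of all genes. With the block 4 of 8 were called lower with topotecan in each genotype, against 5% of all genes in WT and 1.74% in Top1 cKO neurons. After deletion 0 of 8 were called in either fit (edgeR), where 0 had an unadjusted p below 0.05. None of the 8 was at 0. Aldoc (0.09), Sox9 (0.13) and the scarce S100b (0.001, mean 2.18 CPM) had log2 fold changes near 0 in WT-Topot against WT-Veh. The part of astrocyte RNA in the Grm3 and Grm5 values was not tested, and in these bulk libraries fewer cells of a type and less RNA per cell cannot be told apart. The interneuron sum was also lower in WT-Topot (527 to 973 CPM) than in WT-Veh (781 to 1731 CPM), with overlap. With the block 5 of its 8 markers were called lower in WT-Topot (Gad1 −1.06, Gad2 −0.99, Sst −1.04, Vip −2.53 and Npy −1.40) and 1 higher (Lhx6 0.84), against 5% and 3.24% of all genes. Without it 0 of 8 were called (edgeR), where 6 had an unadjusted p below 0.05, and the part of interneuron RNA was likewise not tested. Of the 8 markers on the glutamatergic list, Tbr1 (1.12) was called higher in WT-Topot without the block, against 0.682% of all genes. The block gave 4 higher and 1 lower (Snap25 −0.56), against 3.24% and 5% of all genes.

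Drug and deletion could be set against each other directly, in WT-Topot against Top1 cKO-Veh. Grm3 and Grm7 were called lower with the drug, 2 of 6 genes against 1.23% of all genes, and with the block Grm4, Grm5 and Grm8 joined them, 5 of 6 against 4.8%. Of expressed genes over 500 kb, 41.9% were called lower without the block and 69.8% with it. Grm5 differed by −1.04 (SE 0.23, adjusted p = 0.0165, with the block 3.51e-08) and was also called without WT-Topot replicate 2, Top1 cKO-Veh replicate 1 or Top1 cKO-Veh replicate 3 (adjusted p = 0.000909, 0.000726 and 1.08e-05). Grm8 differed by −1.70 (SE 0.52, adjusted p = 0.0926, with the block 0.00237) and Grm4 by −1.09 (SE 0.31, adjusted p = 0.0673, with the block 0.00279). Grm2 was not called, at 0.31 (SE 0.28, adjusted p = 0.882).

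Whether topotecan acted differently in the 2 genotypes was tested as an interaction over all 12 libraries, where a positive value means a smaller fall, or a rise, in Top1 cKO neurons. None of the 6 genes passed without the block, where 0.398% of all genes were called higher, while 4 of 6 had an unadjusted p below 0.05 and DESeq2's Wald test called 1. Grm8 came closest, at 3.21 (SE 0.64, adjusted p = 0.0108), and passed without WT-Veh replicate 1, WT-Topot replicate 3 or Top1 cKO-Topot replicate 2 (adjusted p = 0.00719, 0.00438 and 0.00890). With the block 3 of 6 were called higher, against 2.44% of all genes, namely Grm8 (3.21, SE 0.50, adjusted p = 6.34e-06), Grm7 (1.53, SE 0.29, adjusted p = 0.000180) and Grm5 (0.97, SE 0.20, adjusted p = 0.000517). All 3 are over 500 kb long. Of the 179 expressed genes of that length, 45.8% were called higher in the same fit, with a median of 1.26 (quartiles 0.63 and 1.77). Grm7 and Grm5 lay within these quartiles and Grm8 above them. Grm4 had 1.20 (SE 0.40, adjusted p = 0.220, with the block 0.0239), while Grm2 (−0.27, SE 0.41) and Grm3 (0.02, SE 0.48) were near 0. In Top1 cKO-Topot against WT-Topot, Grm4 and Grm8 were higher with the block, 2 of 6 genes against 4.6% of all genes (Grm8 1.56, SE 0.55, adjusted p = 0.118, with the block 0.00789). The blocked share there was 31.8% for expressed genes over 500 kb and 10.1% for those of 50 to 100 kb.

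**Figure D3:**
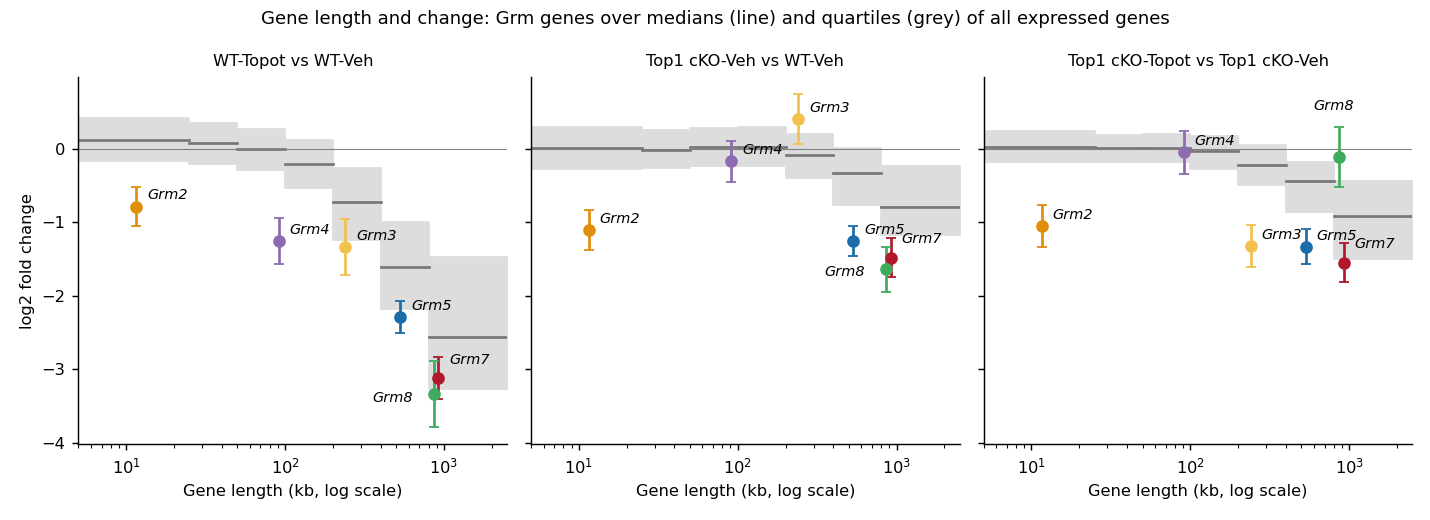
Log2 fold change (vertical axis) against gene length in kb (logarithmic horizontal axis) in 3 comparisons, with the median (grey line) and quartiles (grey band) of all expressed genes in length bins and standard errors on the receptor genes. With topotecan in WT neurons Grm7 lies inside and Grm8 just below the band of the longest genes, and Grm2, 11.6 kb long, lies below the band of its bin in all 3 panels.

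The changes were set beside those of genes of like length. With topotecan in WT neurons, expressed genes over 500 kb had a median log2 fold change of −2.11 (quartiles −2.77 and −1.25, n = 179), and 64.2% of them were called lower. Grm5 (−2.29) lay within these quartiles, and Grm7 (−3.12) and Grm8 (−3.34) lay below them. Among the 72 genes over 800 kb, with quartiles of −3.26 and −1.48, Grm7 lay inside and Grm8 just below. Grm3 (−1.34) lay below the lower quartile of genes of 200 to 400 kb (−1.24). Grm4 (−1.25) and Grm2 (−0.79) lay further from genes of their length, whose lower quartiles were −0.29 for 50 to 100 kb and −0.18 up to 25 kb.

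After deletion alone the 3 long receptor genes lay below the lower quartile of genes over 500 kb. These genes had a median of −0.56 (quartiles −0.93 and −0.13), with 4.47% called lower without the block and 40.8% with it, and Grm5, Grm7 and Grm8 had −1.26, −1.48 and −1.64. Grm3, at 240.1 kb, had 0.40 where the quartiles of its bin were −0.41 and 0.20. Grm2 had −1.11 where genes up to 25 kb had quartiles of −0.27 and 0.29. No test was made of the members against genes of like length.

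The makeup of the receptor mRNA shifted along with its amount. Summed over the 6 genes, CPM per kilobase of exon was 107 ± 10.5 in WT-Veh and 50.4 ± 10.5 in Top1 cKO-Veh, against 28.1 ± 2.54 in WT-Topot and 22.6 ± 3.89 in Top1 cKO-Topot. Grm5 made up 52.3 ± 2.09% of this sum in WT-Veh and 40.3 ± 10.9% in WT-Topot, with overlapping ranges. Group II genes went from 22.1 ± 7.92% in WT-Veh to 44.7 ± 13.4% of the sum in WT-Topot, without overlap (13.6 to 29.3% against 33.95 to 59.7%), mostly through Grm2 at 37.0 ± 13.1%. The Grm7 share went from 19.1 ± 6.89% to 8.20 ± 1.76%, also without overlap. In Top1 cKO-Topot the Grm4 share was 13.8 ± 2.10%, against 3.45 ± 0.0780% in WT-Veh, while its own level was 84.1% of that in WT-Veh. These shares are descriptions without a test.

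**Figure D4:**
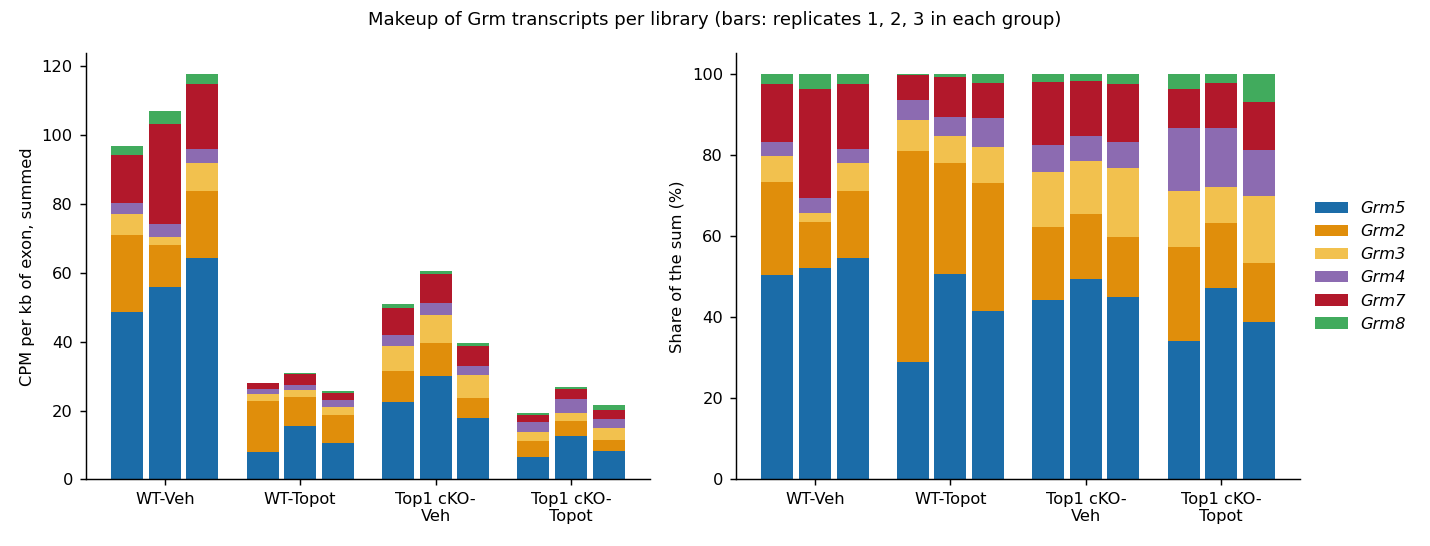
Stacked bars of the 6 receptor genes in each library, as CPM per kilobase of exon (left) and as a percentage of their sum (right), with replicates 1, 2 and 3 of each group side by side. The sum is highest in WT-Veh (107 on average), and orange Grm2 takes its largest share in WT-Topot.

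Signalling partners of the receptors were read from a list of 56 genes, of which 55 averaged at least 1 CPM. With topotecan in WT neurons 10 were called lower and 2 higher, against 2.04% and 0.682% of all genes, and with the block 19 and 7, against 5% and 3.24%. The Gq arm held 5 of the 10 among 14 expressed genes (median log2 fold change −0.94, against 0.03 over all expressed genes), and the largest falls on the list were in Trpc6, a diacylglycerol-gated cation channel (−3.11), Plcb1, the phospholipase C that Gq activates (−2.96), Rgs7, which speeds the turn-off of Gi/o (−2.43), and Prkcb, a protein kinase C (−2.22). The Gi/o arm had 3 lower and 1 higher among 19 genes (median −0.04), with no test between the arms, the higher one being Kcnj9, a subunit of G protein-gated potassium channels (0.86, adjusted p = 0.00874). Rgs12, another G protein regulator, was higher as well (1.32, adjusted p = 0.00271). Deletion alone gave 0 calls in either direction without the block (edgeR), where 19 of 55 had an unadjusted p below 0.05, and 8 lower and 11 higher with it, against 2.95% and 2.6% of all genes.

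The scaffold and adhesion proteins that bind the receptors went in both directions. Of 8 direct partners 0 passed in WT-Topot without the block (edgeR), where 5 had an unadjusted p below 0.05. With it 2 were lower and 3 higher, against 5% and 3.24% of all genes. Homer1, which links group I receptors to calcium stores, went from 204 ± 33.2 to 119 ± 5.77 CPM with topotecan (log2 fold change −0.77, SE 0.18, adjusted p = 0.0151, with the block 1.90e-06). Homer2 went the other way, from 114 ± 10.3 to 195 ± 18.3 CPM (0.79, SE 0.18, adjusted p = 0.0111, with the block 1.22e-06), and had 0.79 with deletion as well (adjusted p = 0.0503, with the block 7.92e-08). Grasp, a scaffold of group I receptors, had −1.38 with topotecan (adjusted p = 0.0126, with the block 7.47e-07). Elfn2, a postsynaptic adhesion protein that binds group III receptors across the synapse, had 0.59 with topotecan (SE 0.23, adjusted p = 0.223, with the block 0.000466) and 1.06 with deletion (SE 0.26, adjusted p = 0.0775, with the block 3.67e-13), and Elfn1 had 0.07 with topotecan (SE 0.33) and 0.65 with deletion (SE 0.32, adjusted p = 0.601, with the block 0.00140). The other partners were near 0 with topotecan in WT neurons for Homer3 (0.25, SE 0.27) and Pick1 (−0.25, SE 0.25), and at 0.50 for Ncdn (SE 0.19, adjusted p = 0.214, with the block 2.53e-05).

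In Top1 cKO neurons 0 of the 55 partner genes were called with topotecan without the block (edgeR), where 5 had an unadjusted p below 0.05, and 3 were lower and 2 higher with it, against 1.74% and 0.858% of all genes. Without the block the interaction was called for 5 partner genes (edgeR), all with a positive value, against 0.398% of all genes called higher. The largest were Rgs7 (2.18, adjusted p = 0.00240), Plcb1 (2.06, adjusted p = 0.00121), Prkcb (1.90, adjusted p = 0.00107) and Prkca (1.73, adjusted p = 0.00558). With the block 12 were called higher and 4 lower, against 2.44% and 1.53% of all genes. The 4 lower included Homer2 (−0.82, adjusted p = 0.00199) and Elfn2 (−0.67, adjusted p = 0.00764). Against WT-Topot, Top1 cKO-Topot had 0 lower and 13 higher without the block, the latter against 1.46% of all genes. The 13 were led by Grasp (1.63), Rgs2, a regulator that acts mainly on Gq (1.501), Prkcb (1.43) and Adcy2, an adenylyl cyclase (1.39). With the block 4 were lower and 18 higher in that comparison, against 4.08% and 4.6% of all genes. Against WT-Veh, Top1 cKO-Topot had 3 lower without the block, namely Plcb1 (−1.94), Adcy8 (−1.51) and Rgs7 (−1.27), and 2 higher, Rgs12 (1.81) and Gnb5 (1.07). There 1.21% of all genes were lower and 0.473% higher. The block gave 7 lower and 9 higher, against 4.02% and 3.34% of all genes.

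The genes whose levels ran most like each receptor were found by Pearson correlation of log2(CPM + 1) with 13719 other expressed genes over the 12 libraries. For Grm7 these were Nkain2 (r = 0.988), Nbea (0.984) and Csmd1 (0.980), and for Grm5 they were Gucy1a2 (0.984), Ptprd (0.981) and Robo2 (0.976). For Grm8 they were Frmd5 (0.961), Fam150b (0.945) and Ell2 (0.939). Grm2 ran with Cxadr (0.963), Coq10a (0.948) and Lrrc28 (0.947), Grm4 with Slc2a13 (0.946), Ttc7b (0.936) and Ptprg (0.934), and Grm3 with Cdh18 (0.913), Mgll (0.885) and Tbc1d32 (0.877). Among the 6 receptors, Grm5 and Grm7 were the most alike (r = 0.971) and Grm2 and Grm4 the least (r = 0.0627). All points share the 4 groups and their libraries, so these values describe the pattern over groups.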

How the data were processed

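RNA-seq of polyadenylated RNA was analysed in 12 libraries. The deposited table holds raw counts summed over RefSeq exons for each gene symbol, which the authors made from mm9 alignments (TopHat, after TagDust, without ribosomal reads). The counting program and its strand setting are not given in the sources used here. The count table (23893 genes, of which 5182 had no count) was fitted with edgeR 4.0.16 in R 4.3.3, using TMM scaling and the quasi-likelihood test (glmQLFit, glmQLFTest) without a filter, on the 6 libraries of each comparison or all 12 for the interaction, and p-values were adjusted by Benjamini-Hochberg over all genes with a threshold of 0.01. Expressed genes had a mean of at least 1 CPM. Alternatives were filterByExpr, DESeq2 1.42.0 size factors and its Wald test, edgeR's exact test, 1 fit of all libraries, leaving out each library, and the replicate number as a block. Shares of all genes called were taken only for the fits with and without the block. Counts from the other alternatives, and counts by unadjusted p, therefore have no background. Same-numbered libraries correlated (r 0.261 to 0.485 in 18 pairs, against −0.384 to −0.0494 in 36 other pairs, as deviations from group means over 13720 genes), so the numbers were taken to pair the libraries, although the labels do not say what a number shares. No 2 libraries of a group agreed within sampling noise (dispersion index 6.05 to 10.1 over 12 pairs). The study gives its replicates as cultures. The 6 receptors were named, 1 further gene of the naming rule is not reported here, and from the rest of the signalling list at most 4 called genes per direction and comparison, by size of change, with all 8 direct partners. The members and lists were chosen with earlier results of these data known. Gene positions and exon lengths came from GENCODE vM1, whereas the counts were summed over RefSeq exons. Values per kilobase of exon, and the shares made from them, thus join different exon sets. The fits of WT-Topot against WT-Veh and of the interaction, both without the block, were tested on simulated counts. Neither the blocked fit nor the other comparisons were simulated. Pass marks on false calls and recovery were set only where spread followed expression level alone. A draw with each gene's own spread, in which genes of large spread gave false calls, was held only to a limit on the median error.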

Additional observations from a re-analysis of the deposited data

Results flagged for a closer look

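The response to topotecan differed between WT and Top1 cKO neurons for 3 of the 6 receptor genes when the difference itself was tested as an interaction with the replicate number as a block (edgeR's quasi-likelihood test). In that fit 2.44% of all genes were called higher, and 45.8% of the 179 expressed genes over 500 kb, the length of these 3 genes. The differences on the log2 scale, Top1 cKO minus WT, were 3.21 for Grm8, 1.53 for Grm7 and 0.97 for Grm5, all toward a smaller fall in Top1 cKO neurons. In the same test on all 12 libraries without the block none of the 3 passed at the threshold of 0.01 (adjusted p = 0.0108, 0.0619 and 0.322). Over all settings run, the interaction was called in 6 of 16 for Grm8 and in 1 of 16 each for Grm7 and Grm5. Grm8 rested on 2, 8 and 11 counts in WT-Topot. Groups of 3 libraries are small for judging single outlying libraries, and each library was left out in turn. Over all settings, these fits among them, the interaction ran from 2.73 to 3.88 for Grm8, 1.23 to 1.82 for Grm7 and 0.64 to 1.24 for Grm5.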

How the results depend on the processing

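Counts of called receptor genes depended on the setting in several comparisons. Settings other than the fits with and without the block have no share of all genes beside their counts. With the replicate block, 6 were called lower in WT-Topot against WT-Veh, 4 in Top1 cKO-Veh against WT-Veh, 4 in Top1 cKO-Topot against Top1 cKO-Veh, 5 in WT-Topot against Top1 cKO-Veh, while 2 were called higher in Top1 cKO-Topot against WT-Topot, and 3 had a higher interaction. In Top1 cKO-Veh against WT-Veh, filterByExpr gave 0, DESeq2's Wald test 3 and edgeR's exact test 3. In Top1 cKO-Topot against Top1 cKO-Veh the last 2 gave 2 and 3. In Top1 cKO-Topot against WT-Topot filterByExpr gave 0 lower. The interaction had 1 higher with DESeq2's size factors and 1 with its Wald test. Beyond these and the calls named in the report, the block changed no call.

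Leaving out 1 library at a time gave 0 to 2 in Top1 cKO-Veh against WT-Veh, likewise 0 to 2 for topotecan within Top1 cKO neurons, 0 to 1 lower in Top1 cKO-Topot against WT-Topot and 0 to 1 for the interaction. A library left out turned the sign of values near 0, with log2 fold changes of −0.24 to 0.089 for Grm4 and −0.59 to 0.12 for Grm8 in Top1 cKO-Topot against Top1 cKO-Veh, −0.089 to 0.33 for Grm7 in Top1 cKO-Topot against WT-Topot, and interactions of −0.46 to 0.057 for Grm2 and −0.31 to 0.37 for Grm3. The block turned the Grm3 interaction to −0.075. The cause of these changes was not tested. Grm5, Grm7 and Grm8 were called lower in WT-Topot against WT-Veh under every alternative run.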
